A study of Homo sapiens with 6 samples.

Results

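The imprinted microRNA cluster at 14q32 lies in the DLK1-DIO3 domain on the long arm of human chromosome 14, and it was followed here in small RNA libraries of extracellular vesicles (EVs). Its members were found by name, as the mature human miRNAs whose number belongs to a hairpin of the cluster. This rule uses no measured value, but it was chosen with earlier results of these data known. The names matched 42 of the 832 miRNAs in the table. RefSeq (GRCh38.p14) lists 85 mature miRNAs under these names from 47 hairpins, and all 42 members were found there, from 30 hairpins, on the plus strand of chromosome 14.

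The vesicles came from MDA-MB-231, an established line of human triple-negative breast cancer cells that the labels call epithelial. The study compared wild-type cells (231 EV) with cells in which ACO1 was knocked down (231 ACO1KD EV), with 3 libraries of each. ACO1 is the cytosolic aconitase, which also binds iron-responsive RNA elements as iron regulatory protein, and the study asked whether it takes part in the loading of miRNAs into EVs. Cells of both groups grew in the same serum-supplemented DMEM and were changed to EV-free medium, from which vesicles were pelleted by ultracentrifugation, so a library holds what was pelleted from the medium and not the RNA of the cells. The labels give neither the knockdown construct nor whether the line is a clone, nor do they say that replicates were separate cultures, so p-values measure the spread between these libraries, which may be technical. ACO1 mRNA is not a miRNA and was not measured in these libraries, so the knockdown itself could not be checked.

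In an imprinted domain both parental chromosomes are used differently, and here the noncoding transcripts MEG3, MEG8 and MEG9 and the miRNAs are made from the maternal copy. The miRNAs are cut as hairpins from such long transcripts, each hairpin can give a mature miRNA from its 5p and its 3p arm, and bases 2 to 8 of the mature miRNA, the seed, pair with target mRNAs. The cluster is known for high levels in placenta and brain and for low levels in many tumours, and the miRNAs opposite RTL1, a paternally expressed gene, are known to cleave its transcript.

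The mature sequences of the 10 members of highest mean level are shown from RefSeq (GRCh38.p14), 5′ to 3′ and with the seed in capitals, because the results below turn on them and because each has a seed of its own within the cluster.
hsa-miR-127-3p: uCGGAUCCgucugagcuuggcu
hsa-miR-411-5p: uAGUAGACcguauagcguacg
hsa-miR-379-5p: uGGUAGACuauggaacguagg
hsa-miR-369-3p: aAUAAUACaugguugaucuuu
hsa-miR-409-3p: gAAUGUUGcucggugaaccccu
hsa-miR-432-5p: uCUUGGAGuaggucauugggugg
hsa-miR-381-3p: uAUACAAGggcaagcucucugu
hsa-miR-494-3p: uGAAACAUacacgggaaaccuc
hsa-miR-136-3p: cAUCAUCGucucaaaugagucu
hsa-miR-382-5p: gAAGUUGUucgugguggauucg

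The 42 members fell into 40 seed groups, and 38 had a seed that no other member carries. Cluster miRNAs without a row are not counted in this, such as hsa-miR-300, which has the seed of hsa-miR-381-3p. The miR-376 family held both seeds shared between members. The 4 sequences concerned are shown because reads of such near-identical miRNAs may be divided between names. The seed of hsa-miR-376a-3p and hsa-miR-376b-3p is the same, and these differ at 1 of 21 bases compared and share their first 18 bases. The 5p miRNAs of miR-376b and miR-376c share the other seed.
hsa-miR-376a-3p: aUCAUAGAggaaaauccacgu
hsa-miR-376b-3p: aUCAUAGAggaaaauccauguu
hsa-miR-376b-5p: cGUGGAUAuuccuucuauguuu
hsa-miR-376c-5p: gGUGGAUAuuccuucuauguu

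Along chromosome 14 the members lay in 2 segments (GRCh38). The 14q32.2 segment, chr14:100869075-100884771, held 11 members from 6 hairpins over 15697 bases. The 14q32.31 segment, chr14:101022071-101065981, held 31 members from 24 hairpins over 43911 bases, and 137299 bases separated the segments. By the GENCODE annotation, 9 of the 14q32.2 members (from miR-431, miR-433, miR-127, miR-432 and miR-136) lay opposite an exon of RTL1, which runs on the minus strand at chr14:100879753-100903722. In 14q32.31, 10 members lay within introns of MEG8, 2 within an intron of MIR381HG and 7 within MEG9, while those of miR-376, miR-382, miR-134, miR-485 and miR-377 overlapped none of these.

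The table held 224948, 230562 and 225006 counts for the 231 EV libraries. It held 175924, 67873 and 157322 for those of 231 ACO1KD EV. A single count equals 4.34 to 4.45 TPM in 231 EV but 14.7 TPM in 231 ACO1KD EV replicate 2, and the limit that a count of 0 allows, 3 counts, is 13.0 to 13.3 TPM against 17.1, 44.2 and 19.1 TPM. hsa-miR-21-5p took 28.5 to 31.2% of the counts in 231 EV and 11.7 to 18.4% in 231 ACO1KD EV, and since TPM are shares of the library's total count, that share enters the TPM of every other miRNA. Levels are given below as deposited TPM, and fold changes with TMM scaling, which sets the bulk of the miRNAs level between libraries.

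The cluster was a small constituent of these vesicle libraries. Its 42 members together took 356, 334 and 302 counts in 231 EV and 357, 140 and 308 counts in 231 ACO1KD EV. In TPM the sums were 1583 (95% Wilson interval 1427 to 1756), 1449 (1301 to 1612) and 1342 (1199 to 1502) in 231 EV and 2029 (1830 to 2251), 2063 (1748 to 2433) and 1958 (1751 to 2189) in 231 ACO1KD EV, where intervals cover counting error only. All 3 knockdown libraries lay above all 3 of 231 EV, with a mean of 2017 ± 53.6 against 1458 ± 120 TPM (SD, n = 3), a ratio of 1.38.

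The size of that ratio depended on the scale. CPM are counts scaled as TPM are, but with TMM each library's total is first multiplied by its TMM factor (0.84 to 1.20). With TMM scaling the sums were 1730, 1614 and 1598 CPM in 231 EV and 1831, 1722 and 1793 in 231 ACO1KD EV. There the groups overlapped and the ratio was 1.08. With hsa-miR-21-5p left out of the library total, a setting chosen after seeing the data, the sums were 2213, 2106 and 1924 against 2310, 2337 and 2400 CPM, a ratio of 1.13 with no overlap. A sum over chosen members was not tested.

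Few members carried most of the signal. The 5 highest held 58.0% of the members' counts and the 10 highest 79.6%, and 28 of 42 had a mean count under 5. hsa-miR-127-3p and hsa-miR-411-5p ranked 121 and 122 of 832 by mean TPM, and hsa-miR-379-5p followed at 179. Between 29 and 31 members were detected in a 231 EV library and between 24 and 28 in a 231 ACO1KD EV library, of which the last are shallower, and 17 were counted in all 6 libraries. The 29 members with a count in at least 3 libraries were tested. The other 13 never exceeded 3 counts in a library and summed to 14 counts over 231 EV and 11 over 231 ACO1KD EV, among them hsa-miR-134-5p, known from neurons as a regulator of dendritic spines, with 0 counts in 5 libraries and 3 in 231 ACO1KD EV replicate 3.

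No member passed an adjusted p of 0.05 between 231 ACO1KD EV and 231 EV, 0 of 29 in the quasi-likelihood test of edgeR, Benjamini-Hochberg adjusted over all 517 miRNAs tested, where 44 passed (8.51%). At an unadjusted p under 0.05 in edgeR there were 4 of 29 members (13.8%) against 97 of 517 (18.8%), namely hsa-miR-411-5p with a higher value in the knockdown and hsa-miR-493-5p, hsa-miR-369-3p and hsa-miR-377-3p with a lower one. DESeq2 called none of the 10 members that it gave an adjusted p, and gave none to the other 19, while it called 41 of the 235 miRNAs with an adjusted p (17.4%). limma on log2(TPM + 1), without TMM scaling, called 2 of 29 members (6.9%), hsa-miR-411-5p and hsa-miR-127-3p, beside 75 of 517 miRNAs (14.5%).

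The direction of the members was mixed. Of the 29 tested, 15 had a higher and 14 a lower fitted value in 231 ACO1KD EV, with a median log2 fold change of 0.17 beside -0.03 over all 517. With library totals in place of TMM the split was 20 against 9 and both medians moved up together, to 0.51 and 0.32. Members with over 3 counts in some library, 24 of the 29, gave a median of 0.19. Groups of TPM values did not overlap for 3 members with higher knockdown values (10.3% of 29, beside 22.6% of 517) and for 2 with lower ones (6.9% beside 5.8%). In TMM-scaled CPM the numbers were 2 (6.9% beside 11.6%) and 6 (20.7% beside 12.8%). The 3 higher in TPM were hsa-miR-127-3p, hsa-miR-411-5p and hsa-miR-127-5p, of which the 2 arms of miR-127 also stood apart in TMM-scaled CPM. But hsa-miR-127-5p had 2, 1 and 1 counts in 231 EV and 2, 1 and 5 in 231 ACO1KD EV. Only 231 ACO1KD EV replicate 3 exceeded the limit of 3 counts there. hsa-miR-493-5p and hsa-miR-377-3p were lower on both scales.

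hsa-miR-411-5p (chr14:101023340-101023360, in an intron of MEG8) had the lowest adjusted p in the cluster. The 231 EV libraries had 164, 278 and 182 TPM and the 231 ACO1KD EV libraries 466, 501 and 299 TPM, from 37, 64 and 41 counts and 82, 34 and 47 counts. The lowest knockdown library lay just above the highest 231 EV library, so the groups did not overlap, but their closest libraries, 231 ACO1KD EV replicate 3 and 231 EV replicate 2, had overlapping Wilson intervals of 225 to 397 and 217 to 354 TPM. The log2 fold change was 0.64 ± 0.27 (SE; edgeR quasi-likelihood test, Benjamini-Hochberg adjusted p = 0.127).

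That result turned on scaling and on a single library. With library totals as the scale hsa-miR-411-5p gave 1.00 ± 0.27 (edgeR, adjusted p = 0.00417), of which 0.68 was above the median of all miRNAs under that scale. Without 231 ACO1KD EV replicate 3 and with TMM it gave 0.83 ± 0.25 (edgeR, adjusted p = 0.0094). Over all 18 alternative settings the log2 fold change ran from 0.47 to 1.02 and the adjusted p in edgeR, DESeq2 or limma from 0.00355 to 0.523, and 5 settings passed the threshold. In the settings with 2 members called, 6.9% of 29, the shares over all 517 miRNAs were 13.7% with library totals, 14.5%, 11.0% and 14.7% in limma at pseudocounts of 1, 0.1 and 10, and 13.5% without 231 ACO1KD EV replicate 3.

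hsa-miR-127-3p (chr14:100883035-100883056, opposite an exon of RTL1) was the most abundant member, with 311, 200 and 258 TPM in 231 EV and 460, 516 and 375 TPM in 231 ACO1KD EV, from 70, 46 and 58 and from 81, 35 and 59 counts. The knockdown libraries were the 3 highest. With TMM the log2 fold change was 0.44 ± 0.27 (edgeR quasi-likelihood test, adjusted p = 0.376), with library totals 0.80 ± 0.27 (edgeR, adjusted p = 0.0256), of which 0.48 was above the median of all miRNAs. It passed the threshold with library totals and in limma at all 3 pseudocounts, and in none of the other 14 settings.

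**Figure D1:**
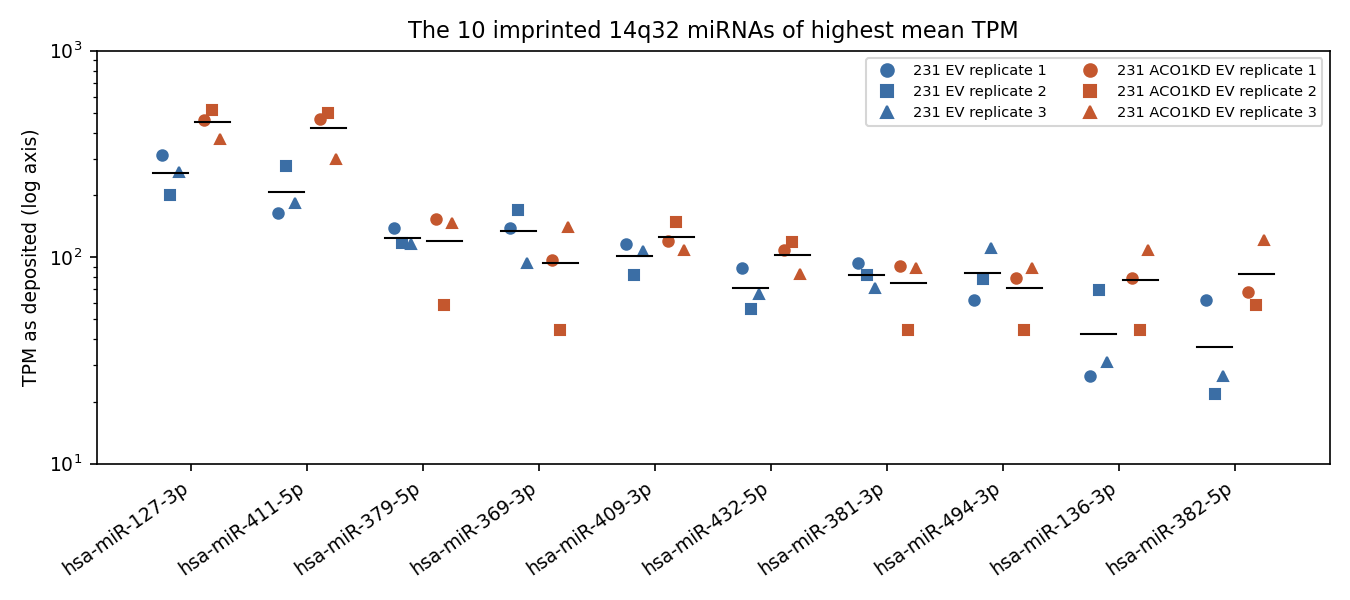
Deposited TPM (log axis) of the 10 members of highest mean TPM in each of 3 libraries of 231 EV (blue) and of 231 ACO1KD EV (orange), with group means as lines. Only hsa-miR-127-3p and hsa-miR-411-5p have 3 knockdown values above all 231 EV values, and 231 ACO1KD EV replicate 2, the shallowest library, is the lowest point for several of the others.

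hsa-miR-379-5p (chr14:101022071-101022091) starts 1269 bases before hsa-miR-411-5p in the same MEG8 span and differs from it in its seed. Its TPM were 138, 117 and 116 in 231 EV and 153, 58.9 and 146 in 231 ACO1KD EV. The single low value came from 4 counts in replicate 2, the other knockdown libraries lay above all of 231 EV, and the groups overlapped (log2 fold change -0.27 ± 0.35, edgeR adjusted p = 0.782). As a ratio within each library, which no scaling can move, hsa-miR-411-5p over hsa-miR-379-5p was 1.19, 2.37 and 1.58 in 231 EV and 3.04, 8.5 and 2.04 in 231 ACO1KD EV. The ratios overlapped (two-sided exact permutation test on log2 ratios, p = 0.2, where 3 libraries against 3 cannot go below 0.1).

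hsa-miR-369-3p (chr14:101065641-101065661, within MEG9), known to act on AU-rich elements of mRNAs, had a lower mean in the knockdown. Its TPM were 138, 169 and 93.3 in 231 EV and 96.6, 44.2 and 140 in 231 ACO1KD EV. The groups overlapped, since replicates 1 and 3 of the knockdown both lay above 231 EV replicate 3. The log2 fold change was -0.72 ± 0.36 (edgeR, adjusted p = 0.247), and -1.10 ± 0.40 without 231 ACO1KD EV replicate 3 (edgeR, adjusted p = 0.0453). That library also had the largest share of hsa-miR-21-5p in its group, 18.4% beside 12.2% and 11.7%, and the part of that in these results was not tested.

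**Figure D2:**
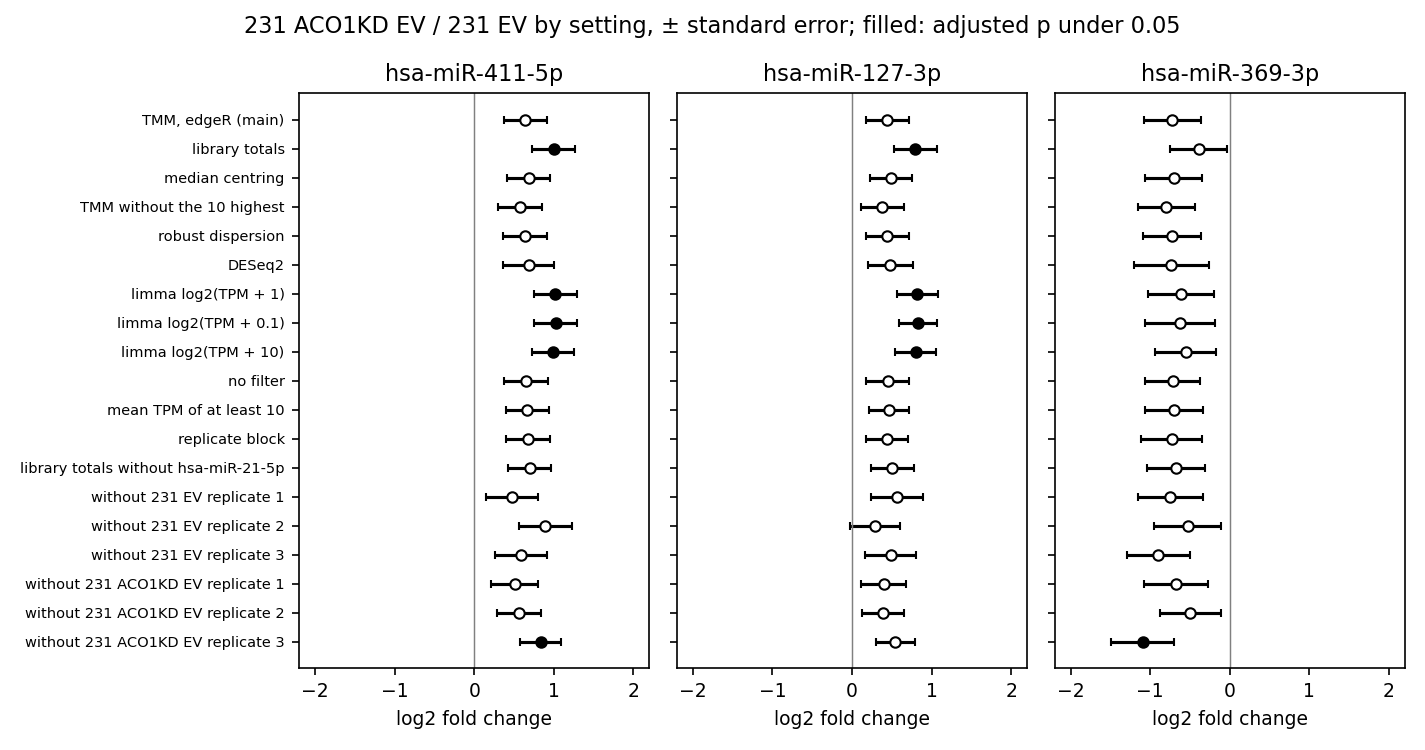
Log2 fold change ± SE of hsa-miR-411-5p, hsa-miR-127-3p and hsa-miR-369-3p under the main fit and 18 alternatives, with filled points where the adjusted p was under 0.05. hsa-miR-411-5p stays between 0.47 and 1.02 and passes in 5 settings, hsa-miR-127-3p passes in 4 and hsa-miR-369-3p in 1.

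The remaining members of high level did not separate the groups in TPM. hsa-miR-409-3p (chr14:101065346-101065367) had 116, 82.4 and 107 TPM in 231 EV and 119, 147 and 108 in 231 ACO1KD EV. hsa-miR-381-3p (chr14:101045968-101045989) had 93.4, 82.4 and 71.1 TPM in 231 EV and 90.9, 44.2 and 89.0 in the knockdown, and hsa-miR-494-3p (chr14:101029681-101029702) had 62.2, 78.1 and 111 against 79.6, 44.2 and 89.0 TPM. In both the lowest TPM was that of 231 ACO1KD EV replicate 2, where it stood for 3 counts, and the rest of the knockdown lay within the range of 231 EV. In TMM-scaled CPM hsa-miR-381-3p did not overlap, with 102, 91.8 and 84.6 in 231 EV against 82.1, 36.9 and 81.5 in the knockdown. It was 1 of the 6 members lower without overlap on that scale (20.7% of 29, beside 12.8% of 517). The log2 fold changes were -0.09 ± 0.37 for hsa-miR-409-3p, -0.37 ± 0.42 for hsa-miR-381-3p and -0.49 ± 0.43 for hsa-miR-494-3p (edgeR, adjusted p = 0.927, 0.742 and 0.654).

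hsa-miR-136-3p (chr14:100884750-100884771, opposite RTL1) had 26.7, 69.4 and 31.1 TPM in 231 EV and 79.6, 44.2 and 108 TPM in 231 ACO1KD EV. hsa-miR-382-5p (chr14:101054316-101054337) had 62.2, 21.7 and 26.7 TPM in 231 EV and 68.2, 58.9 and 121 TPM in the knockdown. In each of these, 1 library of 231 EV reached into the range of the knockdown, and log2 fold changes of 0.61 ± 0.50 and 0.88 ± 0.51 had adjusted p-values of 0.623 and 0.363 in edgeR.

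hsa-miR-432-5p (chr14:100884496-100884518) had 88.9, 56.4 and 66.7 TPM in 231 EV and 108, 118 and 82.6 TPM in 231 ACO1KD EV, with a log2 fold change of 0.17 ± 0.42 (edgeR, adjusted p = 0.901). It was the member with the letters CAUUG, which the study's docking model gives as the stretch of miR-33a-5p that binds ACO1. It was also the member with GGAG, a motif described for sorting into EVs. Of the 42 members it alone held either, on the miRNA strand, with GGAG at bases 5 to 8 and CAUUG at bases 14 to 18, without overlap. Among 2370 human mature miRNAs of RefSeq the shares were 1.73% for CAUUG and 15.7% for GGAG, and among 715 miRNAs of the table with a RefSeq sequence 2.94% and 11.7%. For its pulldown the study named the longer stretch CAUUGC, which hsa-miR-432-5p lacks, since G follows its CAUUG. hsa-miR-432-5p is shown again with CAUUG in capitals.
hsa-miR-432-5p: ucuuggaguagguCAUUGggugg

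Read by position, the members opposite RTL1 took a larger share of the cluster in the knockdown. They held 105, 82 and 87 counts in 231 EV and 120, 47 and 104 in 231 ACO1KD EV, which was 29.5, 24.6 and 28.8% of the cluster's counts against 33.6, 33.6 and 33.8%. These shares do not depend on library scaling and the groups did not overlap, but hsa-miR-127-3p alone made up 13.8 to 25.0% of the cluster's counts in a library. It gave 70, 46 and 58 of the counts in 231 EV and 81, 35 and 59 in 231 ACO1KD EV. Without it, the shares of the other members opposite RTL1 overlapped between the groups. This grouping was chosen after seeing the values and was not tested. In TPM the 9 members summed to 403 ± 57.3 in 231 EV and 679 ± 16.0 in 231 ACO1KD EV (SD, n = 3).

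All 6 tested members opposite RTL1 had positive fitted log2 fold changes with TMM, with a median of 0.41 and none past the adjusted threshold in edgeR. This held for all 6 with library totals, median centring and DESeq2. Both arms of miR-127 and of miR-136 are among the 6, so these are not 6 separate hairpins. hsa-miR-431-5p, hsa-miR-136-5p or both turned negative in limma at each pseudocount, under the replicate block and without 231 EV replicate 2, 231 EV replicate 3 or 231 ACO1KD EV replicate 3, at 0 to 6 counts a library. As a ratio within libraries, hsa-miR-127-3p over hsa-miR-432-5p, 1461 bases further on, was 3.5, 3.54 and 3.87 in 231 EV and 4.26, 4.38 and 4.54 in 231 ACO1KD EV. The groups did not overlap, and the two-sided exact permutation test on log2 ratios gave p = 0.1, the smallest value that 3 against 3 can give. This was 1 of 3 such ratios of members near each other. The pairs were not planned, were chosen with the members' values known and are not all nearest neighbours. The third, hsa-miR-409-3p over hsa-miR-369-3p, was 0.839, 0.487 and 1.14 against 1.24, 3.33 and 0.773, which overlapped (exact permutation p = 0.4), and Benjamini-Hochberg adjustment over the 3 exact tests gave 0.3 for each of the first 2 and 0.4 for the third.

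The remaining segments were mixed. Members within MEG8 held 28.4, 36.8 and 34.1% of the cluster's counts in 231 EV and 37.0, 33.6 and 29.2% in 231 ACO1KD EV, with 1 tested member higher, hsa-miR-411-5p, and 5 lower. Members within MEG9 held 19.1, 20.7 and 18.9% against 12.0, 15.0 and 18.2%, and there the groups did not overlap, with 231 ACO1KD EV replicate 3 close to 231 EV replicate 3. But hsa-miR-369-3p alone made up 8.71, 11.7 and 6.95% of the cluster's counts against 4.76, 2.14 and 7.14%. Without it, the shares of the other members within MEG9 overlapped between the groups. The shares by gene were not tested. Over the whole segments, 14q32.2 summed to 450 ± 71.3 and 704 ± 28.6 TPM and 14q32.31 to 1008 ± 83.7 and 1313 ± 36.9 TPM (SD, n = 3). Fitted values were higher for 6 of 8 tested members in 14q32.2 and for 9 of 21 in 14q32.31, none past the adjusted threshold in edgeR.

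**Figure D3:**
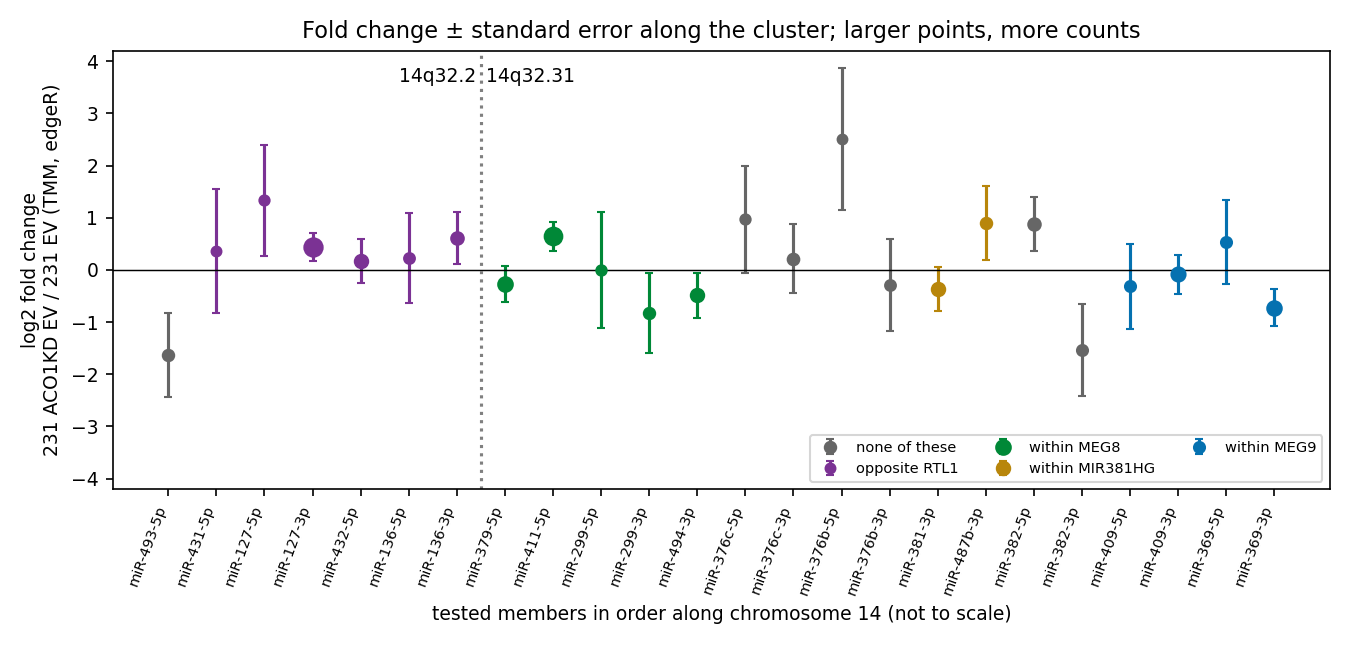
Log2 fold change ± SE (edgeR, TMM) of the 24 tested members with over 3 counts in some library, in order along chromosome 14 and coloured by the gene they overlap. The 6 members opposite RTL1, among them both arms of miR-127 and of miR-136, lie above 0 and those elsewhere on both sides. The standard error crosses 0 for 12 of the 24.

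hsa-miR-493-5p (chr14:100869075-100869096), the outermost 14q32.2 hairpin, differed in sign from the miRNAs opposite RTL1. It had 11, 6 and 9 counts in 231 EV and 1, 1 and 4 counts in 231 ACO1KD EV, with no overlap in TPM. But the closest libraries, 231 ACO1KD EV replicate 3 and 231 EV replicate 2, stood at 25.4 and 26.0 TPM. Its log2 fold change was -1.63 ± 0.81 (edgeR, adjusted p = 0.242). Replicates 1 and 2 of the knockdown lay under the limit of 3 counts, so the size of that fold is uncertain. hsa-miR-377-3p (chr14:101062094-101062115) had 3, 1 and 2 counts in 231 EV and 0 in all 3 knockdown libraries, so both groups were at or under the limit of 3 counts and no fold is given (edgeR, adjusted p = 0.194). At this depth a difference in such members was hardly detectable.

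For 14 hairpins both arms had a row, and the 5p arm had more counts in 5, the 3p arm in 8, and 1 had equal counts. In the 9 hairpins with at least 3 counts in every library, the preferred arm of the abundant hairpins was the same in both groups. miR-127 gave 1.69 to 2.78% of its counts from the 5p arm in 231 EV and 2.41 to 7.81% in 231 ACO1KD EV, while miR-379 gave 93.1 to 100% and 100% in every library. The miR-409 shares were 16.1, 24.0 and 17.2% against 8.70, 28.6 and 15.0%, which overlapped.

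The arms of miR-382 differed most between the groups. The 5p arm made up 63.6, 41.7 and 54.5% of its counts in 231 EV and 92.3, 100 and 82.6% in 231 ACO1KD EV, so that all knockdown libraries lay higher. Pooled over libraries this was 25 of 45 counts (55.6%) against 35 of 40 (87.5%), where 231 ACO1KD EV replicate 3 gave 23 of the 40. The difference of the group means, 38.4 percentage points, ranged from 32.5 to 43.5 when each library was left out. The two-sided exact permutation test gave p = 0.1, the smallest possible, and 0.9 after Benjamini-Hochberg adjustment over the 9 hairpins, and miR-382 was picked out after its values were seen. Its 3p arm, hsa-miR-382-3p, had 8, 7 and 5 counts in 231 EV and 1, 0 and 4 in the knockdown.

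Outside the name rule, 9 further miRNAs of the imprinted domain were listed, of which 4 had a row. The 1 tested did not pass in edgeR, adjusted or unadjusted, nor after adjustment in DESeq2 or limma, with summed TPM of 4.44 to 21.7 in 231 EV and 0 to 6.36 in 231 ACO1KD EV. Of 7 listed miRNAs of 14q32 outside the imprinted domain, such as hsa-miR-342-3p and hsa-miR-345-5p, 5 were tested. Of these, 0 passed in edgeR, adjusted or unadjusted, 0 in DESeq2 and 1 in limma, where 75 of 517 miRNAs passed (14.5%). Their summed TPM, 1284 to 1489 in 231 EV and 1812 to 2092 in 231 ACO1KD EV, were of the size of the cluster's own sums and stood in the same order.

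In TPM the sums of erythroid, leukocyte and fibroblast markers did not overlap between the groups, while those of epithelial, liver and muscle markers did. Over all 517 miRNAs tested, 44 passed the adjusted threshold in edgeR (8.51%). Epithelial miRNAs (6 of 6 tested) summed to 858 to 985 TPM in 231 EV and 619 to 992 in 231 ACO1KD EV with 1 lower in edgeR, and erythroid miRNAs (3 of 3) to 2009 to 2178 and 1256 to 1634 with 2 lower. Leukocyte miRNAs (4 of 4) summed to 8200 to 9660 and 13431 to 15171 TPM with 2 higher, and fibroblast miRNAs (5 of 5) to 3507 to 3561 and 5315 to 5740 with 1 higher. With TMM the most abundant leukocyte and fibroblast miRNAs, hsa-miR-142-3p and hsa-miR-143-3p, had log2 fold changes of 0.10 and 0.18 (edgeR, adjusted p = 0.799 and 0.654). The higher ones past the threshold were hsa-miR-223-3p (0.51, edgeR adjusted p = 0.0226), hsa-miR-150-5p (0.72, 0.0215) and hsa-miR-199a-5p (1.25, 0.00981). The lower ones were hsa-miR-451a (-0.94, edgeR adjusted p = 0.000136), hsa-miR-486-5p (-1.08, 0.000928) and, of the epithelial list, hsa-miR-205-5p (-0.93, 0.00749). The liver miRNA hsa-miR-122-5p had 1094 to 1324 TPM in 231 EV and 985 to 1887 in 231 ACO1KD EV, and muscle miRNAs (2 of 3 tested) 26.7 to 66.7 and 44.5 to 133, with 0 past the threshold in either list in edgeR, adjusted or unadjusted, and 0 after adjustment in DESeq2 or limma. No marker with a row was at 0 in all libraries, and the part of these cell types or of serum in the cluster's values was not tested.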

How the data were processed

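Small RNA of EVs was sequenced in 6 libraries, 3 of 231 EV and 3 of 231 ACO1KD EV, grouped by their titles. Per the study's methods, the authors removed adapters and low-quality bases, dropped sequences of other RNA classes by a search of Rfam, identified known miRNAs through miRBase and predicted unlisted ones, and the submitters' processing notes name Bowtie2, StringTie and hg38. The authors deposited raw counts per miRNA and TPM, which equalled each count's share of its library's total count to within 5e-05. The methods also mention a step on identical sequences without saying whether copies were dropped, so a count is taken here as a number of reads, and counting intervals rest on that. Every column was used.

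miRNAs counted in 3 or more libraries (517) were fitted with edgeR 4.0.16 in R 4.3.3 (TMM, quasi-likelihood test, no covariates, Benjamini-Hochberg adjustment over all 517). Alternatives were DESeq2 1.42.0, limma 3.58.1 on log2(TPM + 0.1, 1 or 10), other scalings and filters, a replicate block and leaving out each library. Reads carry no reported molecular identifiers, so intervals cover counting error only.

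Members past the threshold and the 10 of highest mean TPM were to be named with full statistics, as were hairpins with a mean count of at least 5 on both arms, of which there were 0. Others named were chosen after their values were seen. The members and lists were chosen with earlier results of these data known.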

Additional observations from a re-analysis of the deposited data

How the results depend on the processing

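The count of members past the threshold was 0 in the main fit and 2 with library totals and in limma at pseudocounts of 1, 0.1 and 10, and 0 to 2 when a library was left out, with 2 only without 231 ACO1KD EV replicate 3. The calls among all 517 miRNAs were 44, 71, 75, 57, 76 and, without that library, 70. With a replicate block it stayed 0 and the members' median log2 fold change was -0.045, but replicate numbers share no label of origin and deviations of same-numbered libraries correlated by 0.113, 0.117 and 0.000454, so the numbers were not taken as pairs. That median, 0.17 in the main fit, was 0.51 with library totals, 0.0098, -0.0015 and 0.084 in limma at pseudocounts of 1, 0.1 and 10, -0.044 with no filter, and -0.024 to 0.29 when a library was left out. Relative to the median of all miRNAs it was 0.20 in the main fit and 0.19 with library totals, but -0.24, -0.26 and -0.14 in limma, and the cause was not tested. The log2 ratio of the summed TPM, 0.47, was 0.11 with TMM and 0.17 without hsa-miR-21-5p in the total. hsa-miR-379-5p changed sign with library totals (0.068), and hsa-miR-409-3p with library totals (0.26) and limma (0.30, 0.30 and 0.28 at pseudocounts of 1, 0.1 and 10). Of 180 refits of the 10 named members, 165 kept direction and side of the threshold, 10 passed it and 5 changed sign. Both settings without hsa-miR-21-5p were chosen after seeing the data. Depth limits most members, since 28 of 42 have a mean count under 5.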
